A study of Homo sapiens with 6 samples.

Results

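The 7 genes described here encode the cyclin-dependent kinase (CDK) inhibitors of the Cip/Kip family (CDKN1A, CDKN1B and CDKN1C, for p21, p27 and p57) and of the INK4 family (CDKN2A, CDKN2B, CDKN2C and CDKN2D, for p16, p15, p18 and p19). They were taken by symbol from the 62438 genes of the deposited table, and all 7 were among the 17320 genes that passed the expression filter. RNA-seq was carried out on 6 libraries from a human breast cancer line labelled MDA-MB-453. In 3 of them the cells had received an siRNA against N6AMT1 (si-N6AMT1), and in the other 3 a scrambled siRNA (si-CN), each at 10 nM for 48 h. Both groups therefore share the line, the RNAiMAX transfection and the siRNA dose. N6AMT1 is the enzyme that the study follows as a writer of N6-methyladenine (6mA) in DNA. The study asked whether cell cycle inhibitor genes, P21 among them, respond to loss of N6AMT1. It reported P21 mRNA as lower after N6AMT1 knockdown, also by RT-qPCR in cultured cells and xenografts.

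CDKs drive the cell cycle when bound to a cyclin. INK4 proteins bind CDK4 and CDK6 and keep D-type cyclins from activating them, whereas Cip/Kip proteins bind cyclin and CDK together and mainly block CDK2 complexes at entry into S phase. CDKN1A is the classic gene induced by DNA damage, and CDKN2A and CDKN2B lie side by side on chromosome 9, in a locus that Polycomb complexes keep silent in many dividing cells and that is often deleted or methylated in tumors. CDKN2A encodes 2 unrelated proteins, p16 and the MDM2 inhibitor ARF, from separate starts, and a count per gene cannot separate them.

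Counts per library ran from 19739247 to 21289740. The chi-square of counts per degree of freedom was 1.35 to 1.69 for library pairs of a group and 6.07 to 6.86 between groups, so every pair differed by more than sampling noise. The labels do not say whether the 3 libraries of a group came from separate cultures, so p-values measure the spread between these libraries, which may be technical. N6AMT1 itself (chr21:30244513-30257693, GRCh37, minus strand) had 61, 72 and 60 counts in si-N6AMT1 and 136, 135 and 141 in si-CN. Its groups did not overlap, and its log2 fold change was -1.10 (SE 0.119, FDR = 3.65e-07). SE is the standard error of a log2 fold change. FDR is the Benjamini-Hochberg adjusted p of edgeR's quasi-likelihood test over all 17320 genes, and a gene was called at FDR under 0.05.

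Markers went against the label in part. MDA-MB-453 is known as a luminal line, but the luminal marker SPDEF was at 0.253 TPM in si-CN and KRT19 at 0.797 TPM. CDH1, also on the luminal list, stood at 2.30 TPM, which was not weighed against the label. The basal keratins KRT5, KRT14 and KRT17 stood at 763.5, 150.4 and 4176 TPM and vimentin (VIM) at 652.5 TPM. Other luminal markers were present, with KRT8 at 748.0, KRT18 at 725.6, EPCAM at 455, XBP1 at 98.2, ERBB2 at 26.2 and FOXA1 at 5.34 TPM. TPM is the count divided by transcript length and scaled to the same total in every library. Of the luminal markers, 8 of 10 were tested, with 1 lower and 3 higher in si-N6AMT1, and their summed level was 2055 to 2069 TPM in si-CN and 2120.1 to 2131 TPM in si-N6AMT1. Of the 6 basal markers, 0 were lower and 3 higher, with sums of 5871 to 5908 and 5819 to 5967 TPM. None of 3 fibroblast markers tested was called, and their list summed to 24.5 to 27.4 TPM in si-CN and 25.8 to 28.03 TPM in si-N6AMT1. Blood and endothelial markers reached at most 0.278 TPM. The part of these markers in the results was not tested. Fewer cells with a transcript and less of it per cell cannot be told apart in bulk RNA.

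Promoter sequences are shown for the genes on which the results turn, CDKN1A as the gene the study followed and the 3 genes of the chromosome 9 locus. Each is the 250 bases before a RefSeq start site (GRCh38.p14), 5′ to 3′ on the gene's own strand. Capitals mark the GC box, read as GGGCGG or its complement CCGCCC.
CDKN1A (chr6:36678464-36678713, plus strand): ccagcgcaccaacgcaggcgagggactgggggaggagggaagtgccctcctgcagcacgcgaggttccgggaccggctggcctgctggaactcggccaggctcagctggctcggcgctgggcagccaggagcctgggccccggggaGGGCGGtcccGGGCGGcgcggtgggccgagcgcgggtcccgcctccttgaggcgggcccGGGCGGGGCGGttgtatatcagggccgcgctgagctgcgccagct
CDKN2A, lower start (chr9:21974858-21975107, minus strand): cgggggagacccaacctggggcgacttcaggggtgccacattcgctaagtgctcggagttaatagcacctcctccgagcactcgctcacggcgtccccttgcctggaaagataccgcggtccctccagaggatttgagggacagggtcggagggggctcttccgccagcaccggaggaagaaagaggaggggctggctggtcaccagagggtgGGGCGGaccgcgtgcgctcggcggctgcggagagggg
CDKN2A, upper start (chr9:21995325-21995574, minus strand): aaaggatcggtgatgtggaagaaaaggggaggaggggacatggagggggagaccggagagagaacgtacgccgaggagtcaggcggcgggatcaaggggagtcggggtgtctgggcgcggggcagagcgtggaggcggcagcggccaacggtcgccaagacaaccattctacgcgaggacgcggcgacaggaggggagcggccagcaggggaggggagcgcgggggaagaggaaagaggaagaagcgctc
CDKN2B (chr9:22009306-22009555, minus strand): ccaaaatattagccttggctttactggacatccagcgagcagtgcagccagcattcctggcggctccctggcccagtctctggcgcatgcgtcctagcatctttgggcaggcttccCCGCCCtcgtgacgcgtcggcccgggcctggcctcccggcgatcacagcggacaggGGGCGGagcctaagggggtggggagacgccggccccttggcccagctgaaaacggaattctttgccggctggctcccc
CDKN2B-AS1 (chr9:21994541-21994790, plus strand): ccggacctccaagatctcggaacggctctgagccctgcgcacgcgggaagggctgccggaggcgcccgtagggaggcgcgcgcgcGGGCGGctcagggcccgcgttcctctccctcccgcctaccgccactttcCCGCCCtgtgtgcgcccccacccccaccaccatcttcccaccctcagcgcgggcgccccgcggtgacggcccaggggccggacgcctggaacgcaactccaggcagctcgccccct

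CDKN1A has 4 GC boxes in this window, of which the last 2 share bases, and a GC content of 76.4%, against a median of 58.0% over all promoters. CDKN2B and the antisense RNA CDKN2B-AS1 have 2 each, the lower CDKN2A start has 1 and the upper start has 0. Of 35116 RefSeq promoters, 42.6% hold at least 1 GC box, so its presence does not set these genes apart. Neither CCAAT (in 32.0% of promoters) nor TATAA (in 18.9%), searched on both strands, occurs in these 5 windows. RefSeq promoters were found for 6 of the 7 genes. CDKN1C has no entry. Among these RefSeq starts, the upper CDKN2A start lies 20467 bases from the lower start and 13981 bases from the CDKN2B start. It lies 533 bases from the CDKN2B-AS1 start, which faces it on the opposite strand. The gene spans given below for CDKN2A and CDKN2B-AS1 come from another annotation and build, and their ends are not these starts.

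Of the 7 inhibitor genes, 2 were higher after N6AMT1 knockdown (CDKN2B and CDKN2A), 0 were lower and 5 did not pass the test. Among all genes tested, 9.78% were called higher and 11.5% lower. CDKN2B rose by 15.9% and CDKN2A by 9.55%, and the largest of the other differences was 5.09% in size, for CDKN2C. The median log2 fold change was 0.05 over the 7 genes and 0.0039 over all genes tested. Both genes called lie next to each other on chromosome 9 and encode the INK4 proteins p15 and p16. In CPM, all si-N6AMT1 libraries lay above all si-CN libraries for 4 of the 7 genes, a pattern that 16.8% of all genes tested showed, and below them for 0 of 7, against 18% of all genes tested. The groups overlapped for the other 3. In TPM, CDKN1A and CDKN1C overlapped too, which left CDKN2A and CDKN2B without overlap. The share of all genes without overlap was not counted in TPM, so this cannot be set against a background.

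**Figure D1:**
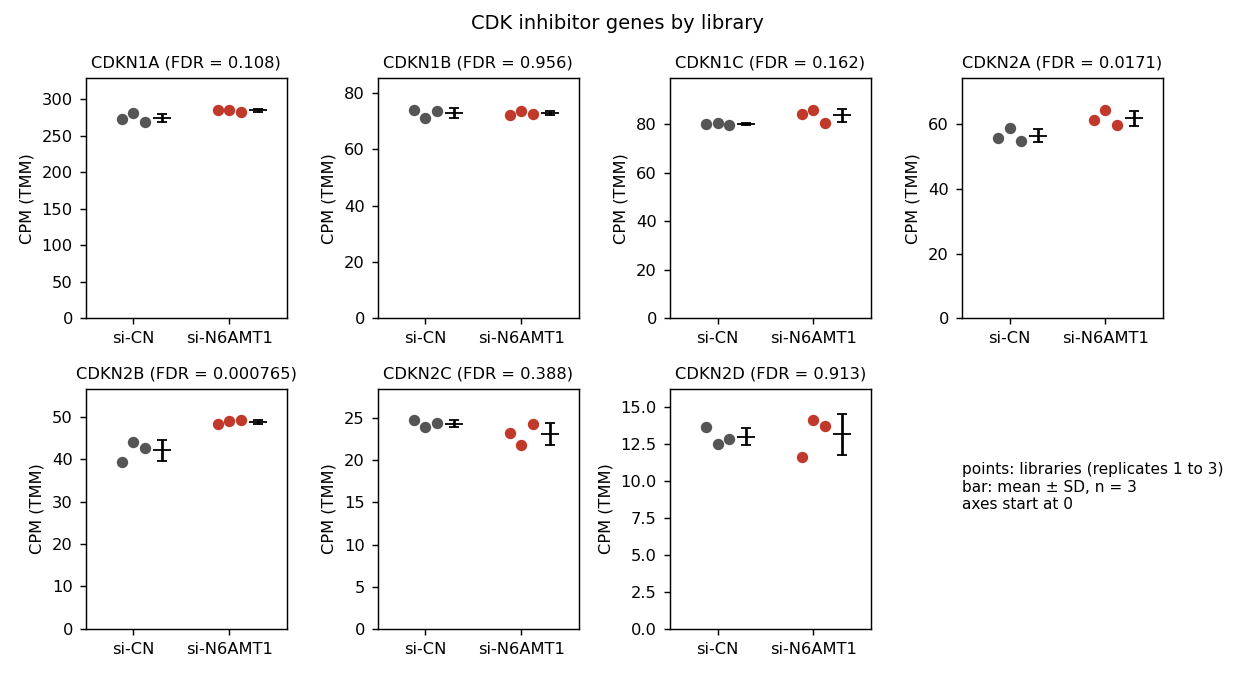
Normalised level (CPM scaled by TMM, y axis from 0) of each CDK inhibitor gene in the 3 si-CN (grey) and 3 si-N6AMT1 (red) libraries, with the mean and SD (n = 3) beside the points. CDKN2B shows the widest gap, from 39.4 to 44.1 CPM in si-CN against 48.2 to 49.1 CPM in si-N6AMT1, while CDKN1B, CDKN2C and CDKN2D overlap between groups.

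Among the Cip/Kip genes, CDKN1A (ENSG00000124762, chr6:36644237-36655114, GRCh37, plus strand) encodes p21, which halts cells in G1 and binds the replication clamp PCNA. It had 5655, 5828 and 5791 counts in si-N6AMT1 and 5361, 5521 and 5703 in si-CN. As CPM, that is counts relative to a common library total after TMM scaling, these were 285, 285 and 282 against 273, 280.4 and 269. In CPM every si-N6AMT1 library was higher than every si-CN library, but the groups overlapped in counts and in TPM. TPM, which uses another library total without TMM scaling, was 295 to 302 in si-N6AMT1 and 283 to 296 in si-CN. Its level was 284 ± 1.72 CPM in si-N6AMT1 and 274 ± 5.82 CPM in si-CN (SD, n = 3). The difference was 3.76% (log2 fold change 0.05, SE 0.0229, FDR = 0.108 by edgeR) and did not pass the test. In this fit the 95% interval on the log2 scale ran from 0.0057 to 0.10, that is from 0.398% to 7.24%. The interval is not adjusted for the number of genes tested, and those of other fits are not given here. It therefore does not exclude a decrease. Under 14 alternative fits the log2 fold change stayed between 0.02 and 0.07, with FDR from 0.0710 to 0.572. The lowest value and the highest FDR came from the replicate block with GC correction. The block alone gave 0.05 (FDR = 0.187, edgeR). When CDKN1A was scaled to ACTB (beta-actin), to which the study scaled its RT-qPCR, the difference was 0.09 on the log2 scale (two-sided exact permutation test, p = 0.1, the smallest that 3 libraries against 3 allow). ACTB itself had a log2 fold change of -0.03 (FDR = 0.253, edgeR), so this scaling moved every member upward. CDKN1B, at 0.03 after scaling, gave the same p of 0.1 in that permutation test.

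The study measured P21 mRNA by RT-qPCR with the following primer pair, shown because it covers the same transcript by another assay whose values were not used here.
P21 forward primer: agtcagttccttgtggagcc
P21 reverse primer: cattagcgcatcacagtcgc

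Both primers were found in 4 of the 8 CDKN1A transcripts of GENCODE. They span 184 bases in the reference transcript CDKN1A-201, 275 in CDKN1A-202 and 325 in CDKN1A-203 and CDKN1A-207. The other 4 transcripts lack at least 1 primer site, whereas the counts here sum the transcripts of the gene.

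CDKN1B (ENSG00000111276, chr12:12838432-12875303, plus strand) encodes p27, which binds CDK2 in resting cells. It had 1431, 1502 and 1490 counts in si-N6AMT1 and 1455, 1399 and 1565 in si-CN, or 72.2, 73.6 and 72.7 CPM against 74.1, 71.0 and 73.8 CPM. The si-N6AMT1 range lay within the si-CN range. The fold change was close to 0, with a 95% interval of -0.07 to 0.06 on the log2 scale (FDR = 0.956, edgeR), and its sign turned under 4 of the alternative fits and with scaling to ACTB. CDKN1C (ENSG00000129757, chr11:2904443-2907005, minus strand), the imprinted gene of p57, had 1671, 1754 and 1652 counts in si-N6AMT1 and 1568, 1580 and 1686 in si-CN, or 84.3, 85.9 and 80.6 CPM against 79.9, 80.2 and 79.5 CPM. In CPM the si-N6AMT1 libraries were all higher, with replicate 3 close to the controls, whereas in TPM the groups overlapped, at 100.6 to 107 TPM in si-N6AMT1 and 98.8 to 101 TPM in si-CN. The log2 fold change of 0.07 (SE 0.0320, FDR = 0.162) did not pass the test, with a 95% interval of -0.00062 to 0.13, and was 0.013 with the replicate block and GC correction.

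Among the INK4 genes, CDKN2B (ENSG00000147883, chr9:22002902-22009304, minus strand) encodes p15, an inhibitor of CDK4 and CDK6 induced by TGF-beta. It had 955, 998 and 1007 counts in si-N6AMT1 and 773, 868 and 904 in si-CN, or 48.2, 48.9 and 49.1 CPM against 39.4, 44.1 and 42.6 CPM. The groups did not overlap, and the si-N6AMT1 libraries lay close together while si-CN replicate 1 was the lowest. The level rose from 42.0 ± 2.41 to 48.7 ± 0.483 CPM (SD, n = 3). On the log2 scale this was 0.21 (SE 0.0427, 95% interval 0.12 to 0.30, FDR = 0.000765 by edgeR). The call held under every alternative fit run, at 0.15 to 0.25, and without si-CN replicate 1 the log2 fold change was 0.17 (FDR = 0.00719). The value of 0.15 came from adding CDKN2B-AS1 counts, a step chosen after the data had been seen. Its FDR over these fits ran from 3.79e-05 to 0.0141.

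CDKN2A (ENSG00000147889, chr9:21967751-21995300, minus strand) had 1213, 1316 and 1226 counts in si-N6AMT1 and 1093, 1158 and 1164 in si-CN, or 61.2, 64.5 and 59.8 CPM against 55.7, 58.8 and 54.9 CPM. The groups did not overlap, but si-N6AMT1 replicate 3 and si-CN replicate 2 were close. The level rose from 56.5 ± 2.08 to 61.8 ± 2.40 CPM (SD, n = 3), or by 0.13 on the log2 scale (SE 0.0388, 95% interval 0.05 to 0.21, FDR = 0.0171 by edgeR). The call was lost with DESeq2 (FDR = 0.129) and when si-N6AMT1 replicate 2 (FDR = 0.118), si-CN replicate 3 (FDR = 0.0948) or si-CN replicate 1 (FDR = 0.0530) was left out of the edgeR fit, although the log2 fold change stayed at 0.10 or above. Over all alternative fits its FDR ran from 0.00993 to 0.129. CDKN2A and CDKN2B share a closely similar exon, so kallisto's split of reads between them is an estimate.

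CDKN2B-AS1 (ENSG00000240498, chr9:21994138-22128102, plus strand), also called ANRIL, is a long noncoding RNA that overlaps CDKN2A and CDKN2B on the opposite strand and is known for recruiting Polycomb proteins to the locus. It had 116, 122 and 114 counts in si-N6AMT1 and 134, 133 and 164 in si-CN. In CPM these were 5.85, 5.98 and 5.56 against 6.83, 6.75 and 7.73, with no overlap and with si-CN replicate 3 the highest. The log2 fold change was -0.30 (SE 0.103, FDR = 0.0426, edgeR), opposite in sign to both inhibitor genes beside it. This call rested on the fit, since FDR was 0.0513 to 0.204 with any 1 library left out, 0.0508 with limma-voom and 0.261 with DESeq2, the highest of all fits run. The ratio of CDKN2B to CDKN2B-AS1 counts was 8.23, 8.18 and 8.83 in si-N6AMT1 and 5.77, 6.53 and 5.51 in si-CN. This ratio had to separate the groups, since neither gene's groups overlapped and they differed in opposite directions. The kit marks strand but kallisto's strand option is not given in the sources used here, so reads of the overlapping exons may be divided between them. With both genes' counts added together, the sum still rose (log2 fold change 0.15, FDR = 0.00899, edgeR). CDKN2B gave most of the sum, so its direction was largely fixed, and the sum cannot show how reads were divided. By contrast, the ratio of CDKN2B to CDKN2A counts was 0.787, 0.758 and 0.821 in si-N6AMT1 and 0.707, 0.750 and 0.777 in si-CN, which overlapped.

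CDKN2C (ENSG00000123080, chr1:51426417-51440306, plus strand), the gene of p18, had 459, 445 and 499 counts in si-N6AMT1 and 485, 471 and 517 in si-CN, or 23.2, 21.8 and 24.3 CPM against 24.7, 23.9 and 24.4 CPM. Replicates 1 and 2 of si-N6AMT1 lay below all si-CN libraries and replicate 3 within their range. The log2 fold change was -0.08 (SE 0.0556, 95% interval -0.19 to 0.04, FDR = 0.388, edgeR), and it was -0.03 without si-N6AMT1 replicate 2 and -0.11 without si-N6AMT1 replicate 3. CDKN2D (ENSG00000129355, chr19:10677136-10679735, minus strand), the gene of p19, had the fewest counts, 230 to 288 per library. It had 11.6, 14.1 and 13.8 CPM in si-N6AMT1 and 13.7, 12.5 and 12.9 CPM in si-CN, and the si-N6AMT1 libraries spread on both sides of the controls. Its 95% interval, -0.15 to 0.19, was the widest of the 7 and its FDR was 0.913 (edgeR).

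**Figure D2:**
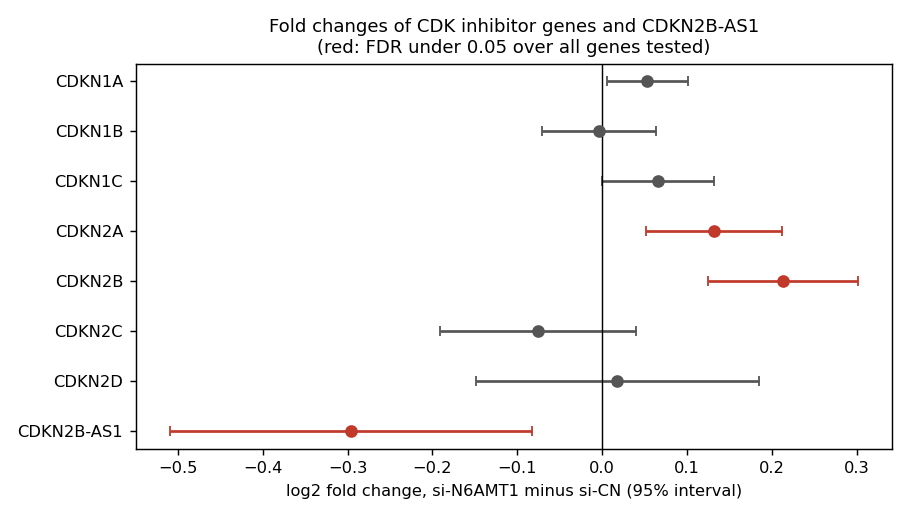
Log2 fold change (si-N6AMT1 minus si-CN, x axis) of each CDK inhibitor gene and of CDKN2B-AS1, with the 95% interval from the edgeR fit and genes called at FDR under 0.05 in red. CDKN2B (0.21) and CDKN2A (0.13) lie to the right of 0, CDKN2B-AS1 (-0.30) lies to the left, and the interval of CDKN1A starts at 0.0057.

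**Figure D3:**
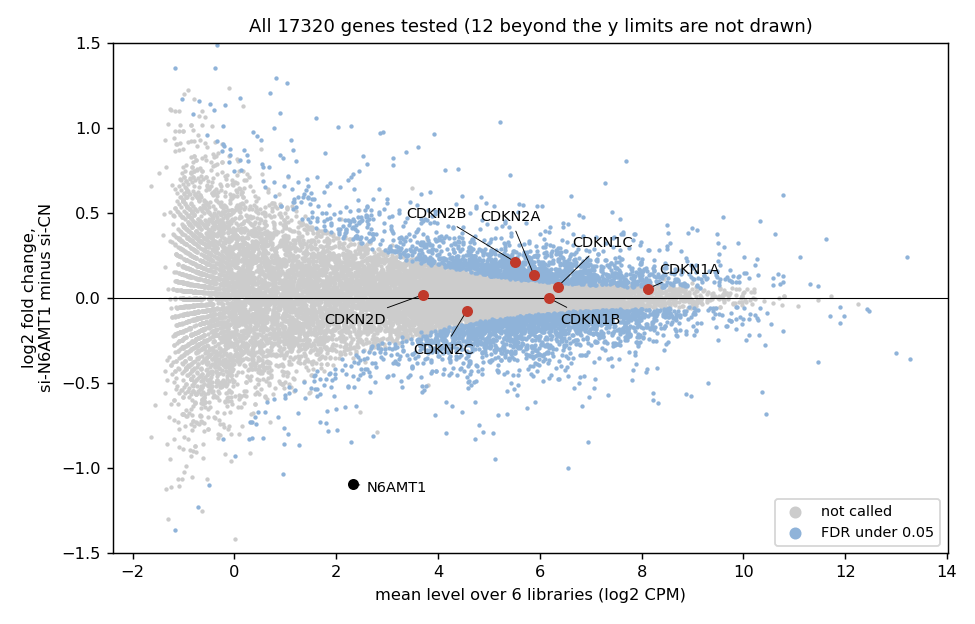
Log2 fold change (si-N6AMT1 minus si-CN, y axis) against the mean level over the 6 libraries (log2 CPM, x axis) for the 17320 genes tested, with genes called at FDR under 0.05 in blue, the CDK inhibitor genes in red and N6AMT1 in black. The inhibitor genes lie near 0 beside N6AMT1 (-1.10), and 12 genes beyond the y limits are not drawn.

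The median size of the log2 fold change among all called genes was 0.18, so CDKN2B (0.21) was slightly above and CDKN2A (0.13) below it. The common biological coefficient of variation between replicates was 1.85%. In the plot of all genes tested, the band of genes not called narrows as the level increases, and CDKN1A lies where it is narrow.

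Levels can be compared between genes only per length. In TPM, CDKN1A was by far the most abundant inhibitor transcript in si-CN, with 288 ± 7.31 TPM (SD, n = 3), ranking 459 among 20019 protein-coding genes. CDKN2A followed with 128 ± 5.35 TPM, CDKN1C with 100.2 ± 1.26, CDKN1B with 67.3 ± 1.33, CDKN2C with 54.4 ± 0.560, CDKN2B with 24.3 ± 1.66 and CDKN2D with 20.3 ± 0.699 TPM (rank 6489). Neighbours in this order did not overlap in any si-CN library, and the order was the same in si-N6AMT1. The order of the lower genes depended on the transcript length used. With the longest transcript in place of the reference transcript, CDKN2C moved from 54.4 to 23.7 TPM and to the lowest place. CDKN1A made up 42.2% of the summed TPM of the 7 genes in si-CN and 42.0% in si-N6AMT1, and CDKN2A 18.8% and 19.7%. CDKN2B rose from 3.55% to 3.95% of this sum. The Cip/Kip genes together had 449 to 464 TPM in si-CN and 463 to 476 TPM in si-N6AMT1, which overlapped, and the INK4 genes 223 to 234 and 239 to 243 TPM, which did not. In CPM neither family overlapped, with Cip/Kip sums of 422 to 432 in si-CN and 436 to 445 in si-N6AMT1 and INK4 sums of 133 to 139 and 144 to 149.

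**Figure D4:**
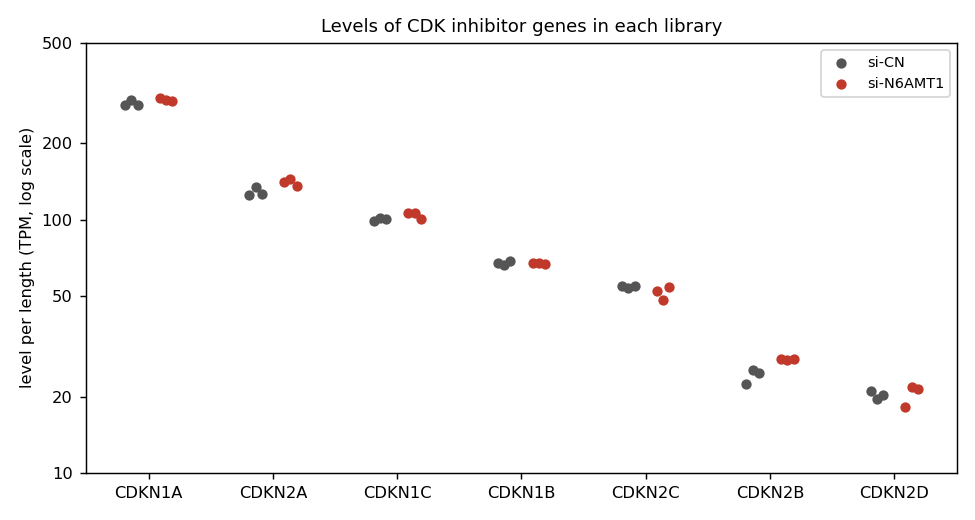
Level per length (TPM, log scale) of each CDK inhibitor gene in the 3 si-CN (grey) and 3 si-N6AMT1 (red) libraries, ordered by the si-CN mean. Levels run from 288 TPM for CDKN1A to 20.3 TPM for CDKN2D, and the distance between genes is far larger than that between groups.

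Of the kinases and cyclins that these proteins bind, listed with the phosphatase CDC25A and the assembly factor MNAT1, 17 of 18 listed were tested, 5 fell (29.4%, against 11.5% of all genes tested) and 0 rose. Their median log2 fold change was -0.04. Cyclin D1 (CCND1), the activator of CDK4 and CDK6, stood at 193 CPM on average in si-CN and 130.2 CPM in si-N6AMT1, with a log2 fold change of -0.57 (SE 0.0252, FDR = 1.91e-13 by edgeR). Cyclin D2 (CCND2) fell by 0.30 (FDR = 2.42e-07) and cyclin B1 (CCNB1), which drives mitosis with CDK1, by 0.15 (FDR = 0.000613). The other members called, named after their values were seen, were the kinases CDK4 (-0.10, FDR = 0.00639) and CDK2 (-0.07, FDR = 0.0395). Without si-CN replicate 3, 3 of the 5 were called, while calls of lower genes over all genes went from 1993 to 1540.

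Degradation sets the amount of p21 and p27 protein in cells to a large extent. Of 20 genes for ubiquitin ligases and their partners that act on Cip/Kip proteins, all tested, 6 fell (30%, against 11.5% of all genes tested) and 3 rose (15%, against 9.78%), with a median log2 fold change of -0.03. UHMK1, a kinase that phosphorylates p27, fell by 0.43 (FDR = 5.79e-11, edgeR). DTL, the substrate receptor through which CUL4 ligases reach p21, fell by 0.26 (FDR = 1.17e-07), and DDB1, its adaptor, by 0.11. The ring finger protein RBX1 rose (0.23), as did the scaffolds CUL1 (0.16) and CUL4A (0.11). CUL4A was not called with DESeq2 (FDR = 0.106) or without si-CN replicate 1 (FDR = 0.0572) or si-N6AMT1 replicate 3 (FDR = 0.0816). SKP2, the receptor for p27, was not called (-0.03, FDR = 0.608), and was singled out after its value was seen.

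Genes known to be induced together with CDKN1A by DNA damage did not move one way. Of 26 tested out of 28 listed, 6 rose (23.1%, against 9.78% of all genes tested) and 8 fell (30.8%, against 11.5%), with a median log2 fold change of 0.03. SESN2, a stress-induced inhibitor of mTORC1 signalling, rose by 0.42 (FDR = 2.97e-07, edgeR), PHLDA3 by 0.21 and PLK2 by 0.20. MDM2 fell by 0.29 (FDR = 8.6e-07), the death receptor FAS by 0.30 and ZMAT3 by 0.28.

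Polycomb genes, whose products silence the chromosome 9 locus, were mostly not called. Of 21 tested, 2 fell (PHC3, -0.15, and BMI1, -0.19) and 4 rose, EZH1 (0.16) and RING1 (0.17) among them, with a median log2 fold change of -0.01. These were 9.52% lower and 19.0% higher, against 11.5% and 9.78% of all genes tested. BMI1, a repressor of CDKN2A in many tissues, went from 35.7 to 39.7 CPM in si-CN to 31.5 to 34.6 CPM in si-N6AMT1 (FDR = 0.00884, edgeR). That call was lost with DESeq2 (FDR = 0.0828), which also called 0 of the 4 rises, and without si-CN replicate 3 (FDR = 0.0930) or si-N6AMT1 replicate 3 (FDR = 0.0590). EZH1 was not called without si-N6AMT1 replicate 1 (FDR = 0.0561), nor RING1 without si-N6AMT1 replicate 1 (FDR = 0.0550), si-N6AMT1 replicate 3 (FDR = 0.0841) or si-CN replicate 3 (FDR = 0.0606).

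Of 29 genes for transcription factors and cofactors that act on Cip/Kip or INK4 genes, 4 rose (13.8%, against 9.78% of all genes tested) and 6 fell (20.7%, against 11.5%), with a median log2 fold change of -0.02. MYC, which represses CDKN1A and CDKN2B, rose by 0.31 (SE 0.0226, FDR = 6.9e-10, edgeR), with 274 to 279 CPM in si-N6AMT1 against 221 to 226 CPM in si-CN. TFAP2A rose by 0.19 and CEBPB by 0.11, which the replicate block with GC correction reduced to 0.05 (FDR = 0.215). KLF6, an activator of CDKN1A, fell by 0.34 (FDR = 4.29e-09), SP3 by 0.11 and FOXO3, an activator of CDKN1B, by 0.11. SP3 was not called with DESeq2 (FDR = 0.0924), with the replicate block and GC correction (log2 fold change -0.06, FDR = 0.181) or without si-CN replicate 2 (FDR = 0.0590), nor FOXO3 with DESeq2 (FDR = 0.105), without si-CN replicate 3 (FDR = 0.0674) or si-N6AMT1 replicate 2 (FDR = 0.0504). In all, 2 of the 29 were called lower without si-CN replicate 3 and 3 without si-CN replicate 2 or si-N6AMT1 replicate 1. Over all genes, these fits called 1540, 1645 and 1818 lower, against 1993 in the main fit.

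Of 10 genes for other proteins named for binding CDKs or their inhibitors, 5 fell (50%, against 11.5% of all genes tested) and 0 rose, with a median of -0.12. Among these were CDKN2AIP, whose product binds ARF (-0.32, FDR = 2.02e-05), CABLES2 (-0.34) and CDK2AP1, an inhibitor of CDK2 (-0.14). With si-CN replicate 2, si-CN replicate 3 or si-N6AMT1 replicate 2 left out, 3 of the 10 were called lower. Over all genes, these fits called 1645, 1540 and 1633 lower, against 1993 in the main fit.

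Genes within 5 kb of a member were examined for shared differences. Beside CDKN2B-AS1, 4 were tested. KRI1, a ribosome biogenesis gene on the same strand just beyond the end of CDKN2D, rose by 0.21 (FDR = 0.0011, edgeR), whereas CDKN2D itself was not called. AP1M2 on the other side of CDKN2D (0.03, FDR = 0.843), FAF1 near CDKN2C (-0.05, FDR = 0.436) and APOLD1 near CDKN1B (-0.15, FDR = 0.462) were not called. Near CDKN1A, the noncoding RNAs PANDAR and DINOL had 0 and at most 5 counts per library, too few to test, and GPR19, which overlaps CDKN1B on the opposite strand, had at most 7.

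The genes with the pattern most like each member over the 6 libraries were found by the root mean square (RMS) difference of log2 CPM centred on each gene's mean, among 10102 genes with at least 10 CPM. For CDKN1A these were WBP2 (0.0044) and PURB (0.0079), and for CDKN2A CLU (0.0083) and IFNAR2 (0.014). For CDKN2B they were CETN3 (0.018) and PLEKHG5 (0.019). CDKN1B was nearest to SPOPL (0.0089) and SFXN1 (0.010), CDKN1C to AGPAT3 (0.011) and TAPBP (0.011), CDKN2C to TMEM87B (0.016) and DCLRE1A (0.017), and CDKN2D to ENSG00000170846 (0.026) and EMC4 (0.028). The 6 libraries form 2 groups, so genes with like differences between groups score as alike.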

How the data were processed

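Reads of stranded mRNA libraries were trimmed with Trim Galore and quantified with kallisto v0.46.0 on hg19. The authors deposited the resulting estimated counts (expected counts), added up over the transcripts of a gene, as whole numbers that are not normalized. Overlapping genes and paralogs may share reads by estimate. Groups and replicate numbers came from the sample labels. Here, the counts of all 6 libraries were fitted in R v4.3.3 with edgeR v4.0.16. Settings were TMM, an expression filter with a minimum count of 10, the quasi-likelihood test and no covariate. P-values were adjusted by Benjamini-Hochberg over 17320 genes, with a threshold of 0.05. The procedure had first been tested on simulated counts with fold changes larger than those of the inhibitor genes. That test therefore does not show how well changes of their size are found. The SE was taken as the size of the log2 fold change over the square root of F. Of 62438 identifiers, 62149 were matched to symbols in GENCODE v44 on GRCh37, which gave positions and lengths for TPM. Depth of 19739247 to 21289740 counts limits precision for the genes with the lowest counts.

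The genes named are N6AMT1, the 7 inhibitor genes, ACTB, genes within 5 kb of a member, up to 3 called genes with the smallest p in each direction of each list, and the 2 genes most like each member. Exceptions are marked. The members and lists were chosen with earlier results of these data known. Alternatives were RLE size factors, DESeq2 v1.42.0 on all genes or on genes with at least 1 TPM, limma-voom (limma v3.58.1), no filter, no mitochondrial genes, a block on replicate number, alone or with GC correction, each library left out, scaling to ACTB, and the longest transcript. Adding CDKN2B and CDKN2B-AS1 counts was chosen after the data had been seen. RefSeq promoters, and primers from the study's supplement, were searched in Python v3.11.15. 6mA and RT-qPCR values were not analysed here, and some genes of these pathways are not reported here.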

Additional observations from a re-analysis of the deposited data

How the results depend on the processing

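CDKN2B kept its direction and its call under all alternative fits run, at 0.15 (CDKN2B-AS1 counts added) to 0.25 on the log2 scale. Scaling to ACTB, which gives no FDR, left it at 0.25. CDKN1A, CDKN1C and CDKN2C kept their direction and passed the threshold under none. Both DESeq2 fits called fewer genes, 796 (all genes) and 930 (genes with at least 1 TPM) higher and 1136 and 1240 lower, and 1 inhibitor gene higher in place of 2, as did the block with GC correction. CDKN2A then had a log2 fold change of 0.13 (FDR = 0.129), 0.13 (FDR = 0.0859) and, with the block and GC correction, 0.10 (FDR = 0.0714). The cause was not tested. With each library left out, the inhibitor genes called higher numbered 1 to 2, and CDKN2A stayed at 0.10 to 0.16 with FDR of 0.0099 to 0.118. Near 0, CDKN1B changed sign under the block with GC correction (0.0084) and ranged from -0.023 to 0.0067 with libraries left out, and it was 0.031 when scaled to ACTB. CDKN2D changed sign under the block with GC correction (-0.028) and ranged from -0.035 to 0.10 with libraries left out.

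Replicate numbers did not pair the libraries, since deviations of same-numbered libraries correlated at -0.0381, -0.0422 and 0.00997, and only replicate 3 correlated best with its own number. With the replicate block, 1522 genes were called higher and 1804 lower, and 2 inhibitor genes were called higher, CDKN2B at 0.21 (FDR = 0.00087, edgeR) and CDKN2A at 0.13 (FDR = 0.0152). CDKN2B-AS1 was no longer called (FDR = 0.0632).

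List counts moved with DESeq2. On all genes, 3 kinase and cyclin genes, 3 ubiquitin ligase genes, 3 of the other binding proteins, 1 Polycomb gene and 2 transcription regulators were called lower, and 3 DNA damage induced genes and 0 Polycomb genes higher. On genes with at least 1 TPM, 4 kinase and cyclin genes, 3 of the other binding proteins, 1 Polycomb gene and 2 transcription regulators were called lower. In that fit, 3 DNA damage induced genes and 0 Polycomb genes were called higher. A list or direction not named for a fit has no count given here, which does not mean that nothing was called. With the block and GC correction, 1 kinase or cyclin gene and 1 Polycomb gene were called higher. With each library left out, 3 to 5 kinase and cyclin genes, 3 to 5 other binding proteins, 1 to 3 Polycomb genes and 2 to 5 transcription regulators were called lower, and 0 to 2 other binding proteins and 0 to 3 Polycomb genes higher. Calls over all genes fell as well, to 1540 to 1818 lower and 1295 to 1523 higher, against 1993 and 1694 in the main fit. DESeq2 too called fewer genes over the whole table, as given above. With the longest transcript as length, si-CN levels became 341 (CDKN1A), 151 (CDKN2A), 116 (CDKN1C), 47.5 (CDKN1B), 30.8 (CDKN2B), 25.8 (CDKN2D) and 23.7 TPM (CDKN2C). At 230 to 288 counts per library, the depth of CDKN2D left differences of up to 0.19 on the log2 scale within its interval.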

Other observations

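The study's supplement also lists a primer pair named for P21 for 6mA immunoprecipitation followed by qPCR.
P21 6mA forward primer: ttcactgggccaaccacatc
P21 6mA reverse primer: ctcacacttgggtctcctct

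In the GRCh37 primary assembly, both primers matched exactly at 1 place each, facing each other on chromosome 4 (chr4:36678602-36678702, 101 bases), and at 0 places on chromosome 6, which holds CDKN1A. No annotated gene overlaps that stretch, and the nearest protein-coding gene, DTHD1, lies 329 kb away. The same start and end numbers, read on chromosome 6 of GRCh38, fall within the 250 bases before the CDKN1A start (36678464 to 36678713). The RNA-seq counts do not use these primers.

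In 3′ UTRs, a match to TTCACAT or TCACATA, sequences picked earlier in these same data for association with expression, was found in 1 of the 7 inhibitor genes, CDKN1B (taagtaacTTCACATtaaaaaat, capitals marking the match). Of 13234 tested protein-coding genes, 22.2% hold a match.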
